A study of Homo sapiens with 6 samples.

Results

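Interferon-stimulated genes are the genes that a cell switches on after interferon binds its receptors. The 43 symbols named for this set were looked up by gene name in the deposited count table of dermal fibroblasts with a knockdown of ZNF469. Of these, 41 matched a row among the 21151 listed genes, and RSAD2 and OASL were not analysed here. The cells were human dermal fibroblasts of the line CCD-1064Sk (CRL-2076 of ATCC), grown from skin. Each group came from these same cells carrying a short hairpin RNA: HDF_shControl (genotype label WT, 3 libraries) or HDF_shZNF469 (genotype label ZNF469 knockdown, 3 libraries). ZNF469 encodes a zinc-finger protein, and the study asked how it affects production of extracellular matrix. The labels call the 3 libraries of a group technical replicates, so p-values measure only the spread between these libraries. The number of hairpins and of cell clones behind each group is not given in the sources used here.

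As background, type I interferons act through the receptor pair IFNAR1 and IFNAR2 and the kinases JAK1 and TYK2. These activate a complex that contains STAT2 and IRF9 and binds a DNA element called the interferon-stimulated response element (ISRE). Type II interferon acts through IFNGR1 and IFNGR2, at gamma-activated sites (GAS). The genes switched on in this way sense viral nucleic acid, block entry, copying and release of viruses, or tag proteins with the ubiquitin-like ISG15. Fibroblasts both make and respond to type I interferon, and keep low levels of many of these genes without added interferon.

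The letters of this response element are shown for 7 members that the results below turn on: the IFIT genes with a promoter entry, 2 members that passed the test, and 2 of the most abundant. In the 250 bases before each RefSeq start (GRCh38.p14), the core GAAANNGAAA, read on both strands, lay in 22 of the 36 members with a promoter entry. Of all 27305 genes with an entry, 3.71% had it. The longer form GAAANNGAAACT, which contains the core, lay in 14 of the 36 members and in 0.271% of all genes. The GAS form TTCNNNGAA lay in 11 of the 36 members and in 8.09% of all genes. Since the members were chosen as interferon-stimulated genes, these shares describe the set and test nothing. Capitals mark the core, which appears as TTTCNNTTTC where it lies on the other strand, and each stretch adds up to 15 bases on either side.
IFIT1: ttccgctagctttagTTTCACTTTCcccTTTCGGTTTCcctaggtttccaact
IFIT3: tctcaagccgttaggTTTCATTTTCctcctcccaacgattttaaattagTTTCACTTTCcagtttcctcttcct
IFIT5: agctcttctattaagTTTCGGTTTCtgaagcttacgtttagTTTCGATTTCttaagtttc
OAS3: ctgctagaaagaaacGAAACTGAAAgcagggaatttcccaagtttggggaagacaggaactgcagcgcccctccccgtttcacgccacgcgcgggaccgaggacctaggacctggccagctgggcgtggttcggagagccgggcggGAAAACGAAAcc
HERC5: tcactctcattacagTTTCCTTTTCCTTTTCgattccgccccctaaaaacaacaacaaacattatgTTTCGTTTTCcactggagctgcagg
IFITM1: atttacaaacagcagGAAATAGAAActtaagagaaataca
IFITM3: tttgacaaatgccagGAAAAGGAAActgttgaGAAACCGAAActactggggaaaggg

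The stretches lie at chr10:89392492-89392544 for IFIT1, chr10:89327826-89327899 for IFIT3 and chr10:89414508-89414567 for IFIT5. Those of OAS3, HERC5 and IFITM1 are at chr12:112938316-112938473, chr4:88456979-88457069 and chr11:313985-314024, and these 6 are on the plus strand. That of IFITM3 is at chr11:320871-320927 on the minus strand. In IFIT1 the cores begin at -116 and -103 relative to the start, and in IFIT5 at -45 and -19. HERC5 has 3 cores, of which the pair farthest from the start overlap.

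ZNF469 was lower in every knockdown library, at 21.4, 18.3 and 18.5 CPM against 39.7, 46.2 and 39.9 CPM in the controls. CPM here is the count scaled to a common library total, with edgeR's TMM factors for library size. On the log2 scale the change was -1.12 (SE 0.09, edgeR adjusted p = 0.000873), and every fold change is given as shZNF469 minus shControl. Total counts ran from 35417366 to 48298264 per library. All 11 fibroblast markers were listed, with summed TPM (the authors' length-scaled transcript level) of 31930 to 34303 in the controls and 24983 to 26422 in the knockdown. The sum is weighted to the most abundant markers: 7 of the 11 had a log2 fold change above 0 and 4 below, with a median of 0.12. At an edgeR adjusted p under 0.05, 1 marker was higher and 3 lower, beside 4.56% and 5.34% of all tested genes. Of 15 immune cell markers 12 were not analysed here, and the other 3 summed to 173 to 195 TPM in the controls and 204 to 245 TPM in the knockdown. CD68, a lysosomal gene that fibroblasts express too, made up nearly all of that sum, and TYROBP was above 0 in shControl replicate 1 alone. The melanocyte gene PMEL (log2 fold change 1.01) and the keratinocyte gene KRT10 (-0.51) also differed between the groups. Summed over each list, the 2 listed keratinocyte markers of 7 ran from 24.9 to 28.8 TPM in shControl and from 18.5 to 19.7 TPM in shZNF469, and PMEL, the single listed melanocyte marker of 6, from 15.1 to 15.6 and from 27.8 to 32.2 TPM. The 4 listed smooth muscle markers of 5 summed to 89.3 to 93.1 TPM in shControl and 80.6 to 91.1 TPM in shZNF469. The 3 listed endothelial markers of 6 stayed at or under 1.66 TPM in every library. The part of these markers in the results below was not tested. In bulk RNA, fewer cells that express a gene and less of its RNA per cell cannot be told apart.

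As a set, the interferon-stimulated genes were called about as often as other genes. Of the 40 tested members, IFI16 and HERC5 were higher in shZNF469 at an adjusted p under 0.05, where 4.56% of the 16353 tested genes were higher. IFIT1, OAS3 and XAF1 were lower, where 5.34% of all tested genes were lower. HERC5 entered the test only through the knockdown libraries, since it was listed at 0 in the controls, so its call compares with values under a floor described below and is no support for a rise. Both directions together came to 5 of 40 members, beside 9.9% of all tested genes, and the other 35 members did not pass. The median log2 fold change of the 40 was -0.05, beside 0.00 over all tested genes, with 27 members below 0 and 13 above. The 36 members above 0 in every library had the same median, with 1 higher and 3 lower. The groups' libraries did not overlap for 10 members with the knockdown below (15.7% of all genes) and 5 with the knockdown above (15.6%). DESeq2 called 4 members higher and 6 lower, against 11.2% and 11.3% of the genes for which it gave an adjusted p. Without shControl replicate 1, 2 or 3 the members called higher numbered 1 each time, and those called lower 1, 2 and 1. Over all genes these fits called 215, 332 and 267 higher and 333, 397 and 405 lower, beside 745 and 874 with all libraries. Without shZNF469 replicate 1, 2 or 3 the members numbered 0, 2 and 1 higher and 1, 2 and 2 lower. All genes then numbered 204, 769 and 496 higher and 388, 854 and 625 lower.

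**Figure D1:**
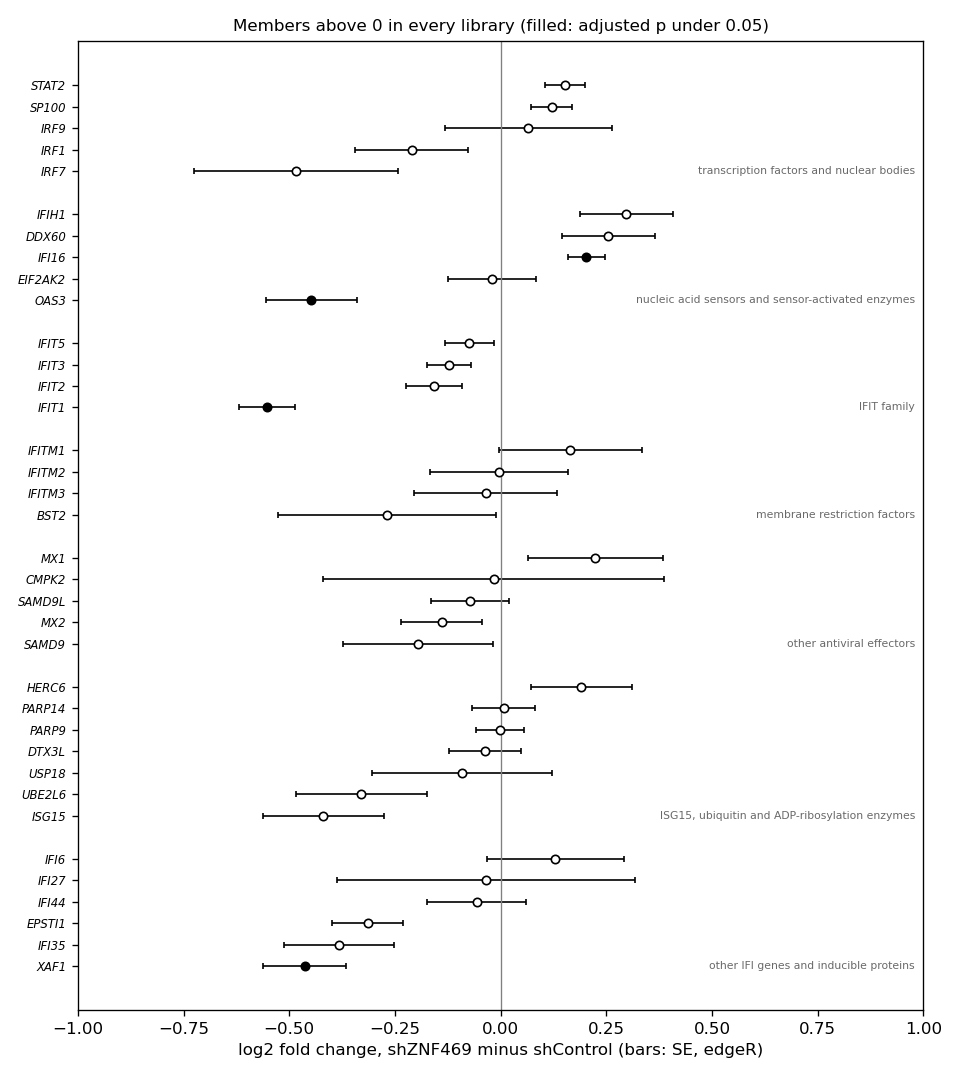
Log2 fold change (shZNF469 minus shControl, x axis) with its SE for the 36 members above 0 in every library, ordered by role. Filled points (IFIT1, OAS3, XAF1 and IFI16) passed at an adjusted p under 0.05, and all 36 lie between -0.55 and 0.30.

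Levels differed far more between the members than between the groups. Mean TPM ran from 2931 for IFITM3 down to 0.271 for OAS2 among tested members, with a median of 10.8 TPM. IFITM1, IFITM2 and IFITM3 together held 84.0% of the summed TPM of all 41 members. The sum of the other 38 members was 1017, 987 and 973 TPM in shControl and 984, 1008 and 943 TPM in shZNF469. These sums overlapped, at 992 ± 22.7 and 978 ± 33.0 TPM (SD, n = 3). OAS1, OAS2, ISG20, HERC5 and IFI44L were listed at 0 in at least 1 library. No library lists a TPM between 0 and a floor of 0.333 to 0.456, so a listed 0 does not show that reads were absent.

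**Figure D2:**
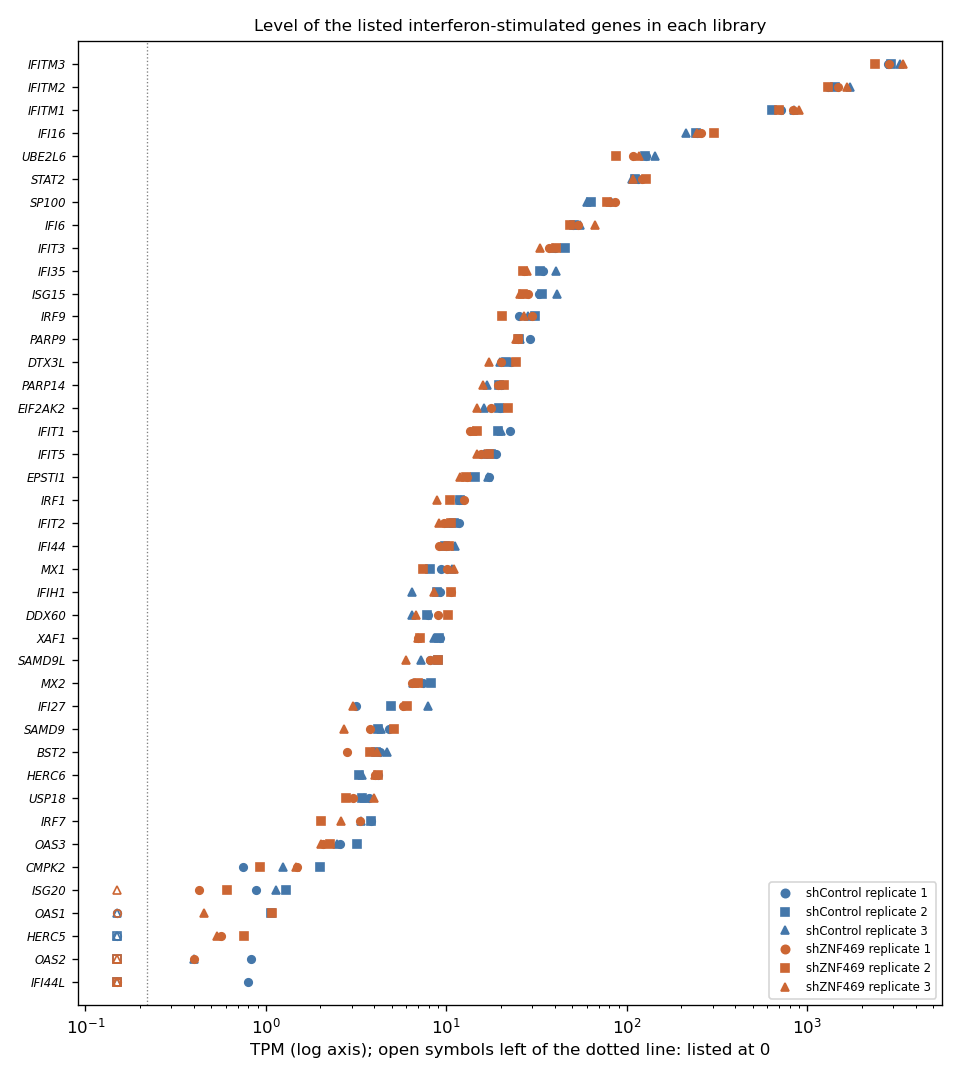
TPM (log axis) of the 41 listed members in each of the 6 libraries, shControl in blue and shZNF469 in orange. The 3 IFITM genes stand above all other members, and the 5 members at the bottom were listed at 0 (open symbols) in at least 1 library.

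None of the transcription factor and nuclear body genes passed with edgeR. Of the 5, 2 had an unadjusted p under 0.05, which 4001 of the 16353 tested genes had. The same 2 passed with DESeq2, which called 22.5% of the genes for which it gave an adjusted p. With so few genes, nothing is read from these counts. STAT2, a subunit of the ISRE-binding complex, stood at 226, 215 and 215 CPM in shControl and 244, 247 and 236 CPM in shZNF469. The knockdown libraries all lay above the controls, but the difference did not pass (log2 fold change 0.15, SE 0.05, edgeR adjusted p = 0.0967). With DESeq2 it did (adjusted p = 0.00527), and over all alternatives its adjusted p reached 0.274. SP100, a scaffold protein of nuclear bodies, had 108, 108 and 104 CPM against 114, 118 and 116 CPM, again without overlap (adjusted p = 0.181, and 0.0397 with DESeq2). In the authors' TPM the groups of both genes overlapped, for SP100 because shControl replicate 1 had 80.8 TPM and shZNF469 replicate 2 had 77.5 TPM. Of the 50-base windows of SP100, 13.3% also occur in transcripts of other genes, chiefly the overlapping same-strand gene HMGB1P3. The counts of SP100 are less certain to that extent. IRF9, which gives the complex its DNA contact, was at 23.4 ± 3.39 and 24.5 ± 6.25 CPM (SD, n = 3; adjusted p = 0.891). All of its 50-base windows also occur in an overlapping read-through transcript, so its counts are uncertain. IRF1, which binds similar elements, was at 18.1 ± 1.02 and 15.7 ± 2.98 CPM, with overlap between the groups (adjusted p = 0.406). IRF7, the factor that amplifies type I interferon production, was the lowest of these 5 genes, at 3.17 TPM. It had 3.12, 3.06 and 3.02 CPM in shControl and 2.87, 1.53 and 2.17 CPM in shZNF469. The groups did not overlap, and the spread of the knockdown libraries was wide (log2 fold change -0.48, SE 0.24, edgeR adjusted p = 0.276).

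Among sensors of nucleic acid, IFI16 was higher and OAS3 lower. IFI16 (ENSG00000163565, chromosome 1, 158999976 to 159055151), a sensor of DNA in the nucleus and cytosol, had 257, 260 and 255 CPM in shControl and 289, 299 and 301 CPM in shZNF469. The groups were well apart on this scale, although the rise was only 1.15-fold (log2 fold change 0.20, SE 0.04, edgeR adjusted p = 0.0308). In the authors' TPM the groups overlapped slightly, since shControl replicate 1 had 246 TPM and shZNF469 replicate 3 had 245 TPM. The IFI16 call was lost when any control was left out (adjusted p = 0.119, 0.103 and 0.118 for replicates 1, 2 and 3). The same held for shZNF469 replicates 1 and 3 (adjusted p = 0.0787 and 0.0740).

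OAS3 (ENSG00000111331, chromosome 12, 112938474 to 112973251) makes 2-5A, the messenger that activates RNase L. Its values were 7.52, 8.53 and 7.22 CPM in shControl and 6.00, 5.47 and 5.61 CPM in shZNF469. Each knockdown library lay below each control (log2 fold change -0.45, SE 0.11, edgeR adjusted p = 0.0435). This call was the least stable of the 5: it was lost in each of the 6 fits that left out 1 library, with adjusted p from 0.0780 without shControl replicate 3 to 0.148 without shControl replicate 2. The neighbouring OAS1 and OAS2 were listed at 0 in 3 libraries each and had at most 38 counts in any library. OAS1 was above 0 in shControl replicate 2 and shZNF469 replicates 2 and 3, and OAS2 in shControl replicates 1 and 3 and shZNF469 replicate 1.

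IFIH1, also known as MDA5, senses long double-stranded RNA. It had 13.3, 13.0 and 10.5 CPM in shControl and 16.2, 14.9 and 14.2 CPM in shZNF469 (adjusted p = 0.148). The groups did not overlap, and DESeq2 gave an adjusted p of 0.0406. The log2 fold change of 0.30 became 0.20 without shControl replicate 3, its lowest library (adjusted p = 0.314). DDX60, a helicase gene linked to RNA sensing, was at 19.0 ± 1.31 and 22.7 ± 3.10 CPM (adjusted p = 0.211). EIF2AK2 encodes PKR, the kinase that stops translation on double-stranded RNA. It was at 79.1 ± 5.05 and 77.9 ± 10.6 CPM and overlapped (adjusted p = 0.938).

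The IFIT genes, whose products bind foreign or uncapped RNA, lie side by side on chromosome 10, and IFIT1 was the member with the lowest p of the whole set. IFIT1 (ENSG00000185745, 89392623 to 89406487) had 40.5, 36.8 and 39.2 CPM in shControl and 25.3, 26.0 and 28.1 CPM in shZNF469. All 3 knockdown libraries were well below all 3 controls, a 1.47-fold fall (log2 fold change -0.55, SE 0.07, edgeR adjusted p = 0.00344). The call held in all 10 alternatives, with adjusted p of at most 0.0274. In the authors' TPM the values were 22.6, 19.3 and 20.1 against 13.5, 14.8 and 14.1.

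The other 3 family members stayed nearer to their control level and did not pass. IFIT3, which binds and stabilises IFIT1, had 44.5, 47.3 and 45.5 CPM in shControl and 41.4, 43.5 and 41.2 CPM in shZNF469 (log2 fold change -0.12, SE 0.05, edgeR adjusted p = 0.209). IFIT5 was at 28.3 ± 1.18 and 26.8 ± 0.617 CPM (adjusted p = 0.515). IFIT2, which was added to the genes named after its values were seen, was at 16.6 ± 0.494 and 14.9 ± 0.195 CPM (adjusted p = 0.192). The groups of IFIT2 and IFIT3 did not overlap in CPM but did in the authors' TPM, and those of IFIT5 overlapped in CPM. The ratio of IFIT1 to IFIT3 counts within a library, also chosen after seeing the values, went from 0.910, 0.778 and 0.861 to 0.611, 0.598 and 0.681. All knockdown ratios were below all control ratios (exact permutation test, two-sided, p = 0.1, the smallest that 3 against 3 allows). Since the ratio was picked with these values known, the test lends it no support. IFIT1, IFIT3 and IFIT5 all carry a pair of ISRE cores in the stretches printed above.

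**Figure D3:**
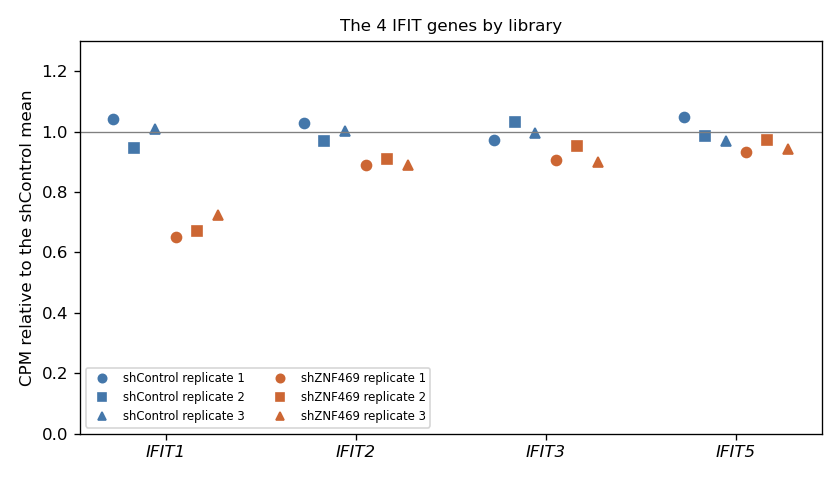
CPM of IFIT1, IFIT2, IFIT3 and IFIT5 in each library, divided by the gene's shControl mean (y axis, from 0). IFIT1 falls furthest below 1 in the knockdown libraries, while IFIT5 overlaps its controls.

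IFIT1 can mostly be told apart from other genes by sequence. Of the 50-base windows of the longest IFIT1 coding transcript, 1.03% also occur in transcripts of other genes, chiefly IFIT1B. For IFIT2 the share is 8.40%, chiefly with the overlapping same-strand gene AL353751.1, so its counts are less certain. The lysosomal lipase gene LIPA spans IFIT1 on the opposite strand in GENCODE release 29, but its exons share 0 of 4613 exonic bases with IFIT1. With IFIT2, LIPA exons share 65 of 4101 exonic bases. LIPA counts did not follow those of IFIT1 (log2 fold change -0.01, adjusted p = 0.946).

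The IFITM genes were the most abundant members and varied widely between libraries of a group. IFITM1, IFITM2 and IFITM3 encode small membrane proteins that hinder fusion of viruses with the cell. IFITM3 had 717, 746 and 915 CPM in shControl and 759, 601 and 962 CPM in shZNF469. IFITM2 had 395, 421 and 544 CPM against 448, 367 and 541 CPM. IFITM1 had 203, 206 and 270 CPM against 251, 201 and 308 CPM. In each gene shControl replicate 3 was the highest control and shZNF469 replicate 2 the lowest knockdown library, and the groups overlapped. The log2 fold changes were -0.03 (SE 0.17), -0.00 (SE 0.16) and 0.17 (SE 0.17) for IFITM3, IFITM2 and IFITM1 (edgeR adjusted p = 0.938, 0.993 and 0.641).

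This order of libraries was shared by 9 of the 40 tested members (22.5%): besides the IFITM genes, MX1, ISG15, USP18, UBE2L6, IFI6 and IFI35. It held for 18.7% of all tested genes. By length of the longest transcript, it held for 28.0% of genes under 1000 bases, 29.6% of those of 1000 to 3000 bases and 10.8% of those of 3000 bases or more. The longest transcripts of the IFITM genes have 808 to 892 bases. The pattern was noticed after the values were seen, and what lies behind it was not tested.

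**Figure D4:**
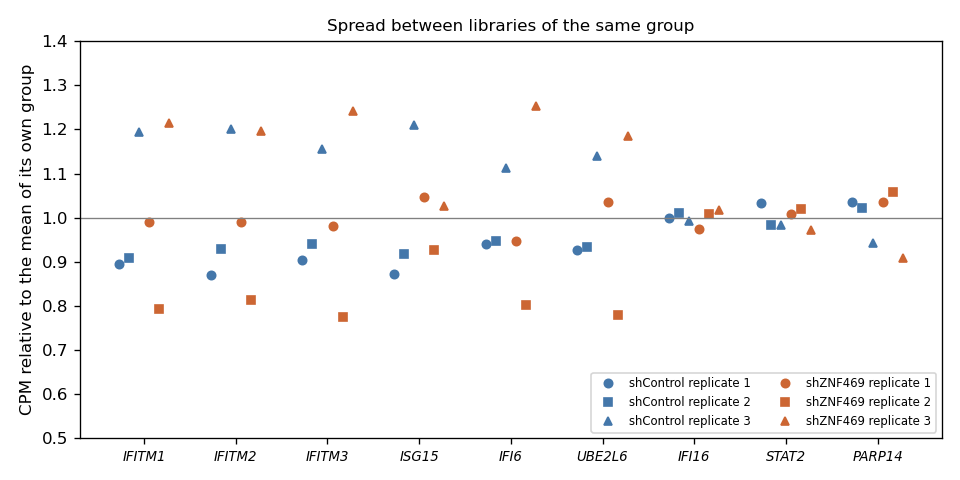
CPM of 9 members in each library, divided by the mean of the library's own group (y axis). The IFITM genes, IFI6 and UBE2L6 share high values in replicate 3 of both groups and a low value in shZNF469 replicate 2, unlike IFI16, STAT2 and PARP14.

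Ratios between the IFITM genes were also taken within each library. The ratio of IFITM1 to IFITM3 counts was 0.283, 0.276 and 0.295 in shControl and 0.331, 0.336 and 0.321 in shZNF469. The groups did not overlap (exact permutation test, two-sided, p = 0.1, the smallest possible here), whereas the ratio of IFITM2 to IFITM3 overlapped (p = 0.5). Both ratios were chosen after seeing the values, and the 2 p-values are unadjusted, so the tests lend the ratios no support. The 3 genes are near-copies on chromosome 11: 42.3% of IFITM1, 15.8% of IFITM2 and 20.3% of IFITM3 windows of 50 bases also occur in transcripts of other genes. How reads were split between them is therefore uncertain, and so are these ratios. BST2 (tetherin), which holds budding viruses at the cell surface, was low, at 1.89 ± 0.216 and 1.57 ± 0.326 CPM (adjusted p = 0.611).

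None of the other antiviral effector genes passed with edgeR, and 0 of these 6 tested genes had an unadjusted p under 0.05, which 4001 of the 16353 tested genes had. So few genes can give 0 at that share, and nothing is read from it. DESeq2 called none of them. MX1, a dynamin-like GTPase that traps viral nucleoproteins, was at 11.8 ± 1.02 and 13.7 ± 2.85 CPM (adjusted p = 0.471). SAMD9L, which blocks viral translation, was at 22.9 ± 0.593 and 21.8 ± 2.61 CPM (adjusted p = 0.718). ISG20, an exonuclease gene, had 24, 41 and 31 counts in shControl and 16, 8 and 0 in shZNF469. Its groups did not overlap, but at these counts the difference did not pass (adjusted p = 0.272).

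In the ISG15 pathway, ISG15 itself and the conjugating enzyme UBE2L6 had lower mean values without passing. ISG15, the ubiquitin-like modifier, had 8.76, 9.21 and 12.2 CPM in shControl and 7.86, 6.96 and 7.70 CPM in shZNF469. The groups were apart but did not pass (log2 fold change -0.42, SE 0.14, edgeR adjusted p = 0.121, and 0.0217 with DESeq2). Without shControl replicate 3, its highest library, the log2 fold change was -0.26 (adjusted p = 0.252). UBE2L6, the enzyme that passes ISG15 on to its ligases, had 65.9, 66.3 and 81.0 CPM against 58.6, 44.1 and 67.0 CPM. Here shZNF469 replicate 3 lay above the lowest controls (adjusted p = 0.249), although in the authors' TPM all knockdown libraries were below the controls. The ADP-ribosyltransferase gene PARP9 and its partner DTX3L, an E3 ligase gene, share an opposite-strand overlap. Without a stated strand setting their reads near the shared start cannot be told apart. PARP9 was at 40.5 ± 1.31 and 40.4 ± 1.78 CPM and DTX3L at 52.7 ± 1.66 and 51.4 ± 5.87 CPM.

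HERC5, the main ligase for ISG15, was listed at 0 in all 3 controls and had 41, 55 and 36 counts in the knockdown (edgeR adjusted p = 0.00942). Its TPM in the knockdown was 0.564, 0.761 and 0.536, close to the floor of the table. The lowest TPM above 0 was 0.456, 0.342 and 0.399 in the control libraries, which for HERC5 corresponds to between 23.2 and 25.2 counts over the 6 libraries. A control level just under these counts would thus also be listed at 0, so no fold is given and the p-value does not measure a change from a known control level. The call was lost without shZNF469 replicate 1 (adjusted p = 0.0578), and DESeq2 gave no adjusted p. HERC6, its neighbour on chromosome 4, was at 5.89 ± 0.723 and 6.72 ± 0.264 CPM (adjusted p = 0.402).

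**Figure D5:**
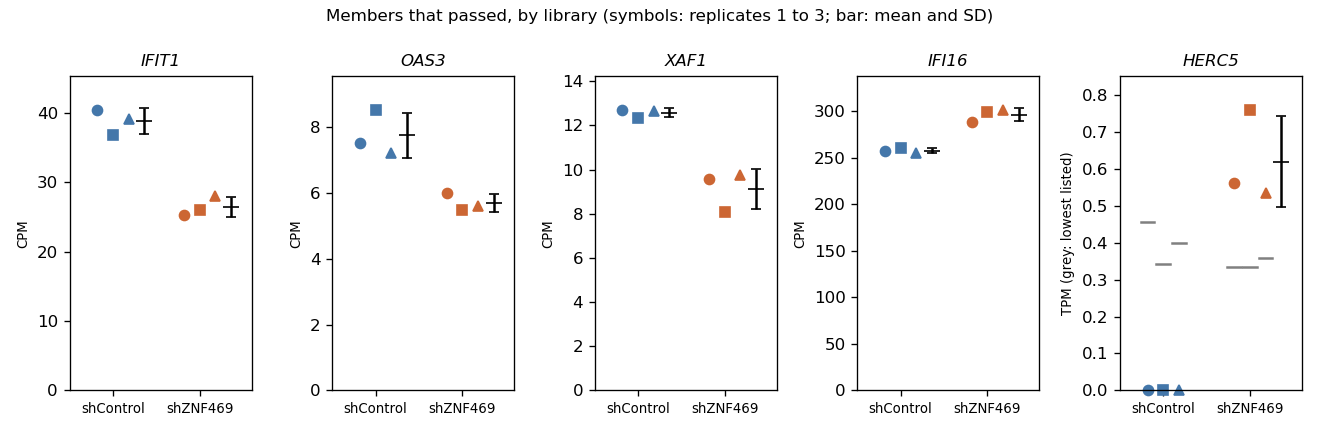
Values of the 5 members that passed, by library, with group mean and SD: CPM for IFIT1, OAS3, XAF1 and IFI16, TPM for HERC5. The groups do not overlap in any panel, and the grey bars in the HERC5 panel mark the lowest TPM above 0 listed in each library.

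Among the remaining members, XAF1 passed. XAF1 (ENSG00000132530, chromosome 17, 6755447 to 6775647) encodes an antagonist of the apoptosis inhibitor XIAP. It had 12.7, 12.3 and 12.7 CPM in shControl and 9.55, 8.07 and 9.75 CPM in shZNF469. The controls lay within a narrow range above all knockdown libraries (log2 fold change -0.46, SE 0.10, edgeR adjusted p = 0.0288). Leaving out any control ended the call (adjusted p = 0.103, 0.0866 and 0.0886 for replicates 1, 2 and 3), as did leaving out shZNF469 replicate 1 (adjusted p = 0.0809). XAF1 is overlapped by the noncoding gene PRAL on the opposite strand, so its value is uncertain to that extent. The same limit holds for other members with an opposite-strand gene in GENCODE release 29: OAS1, OAS2, OAS3, ISG15, EPSTI1, IFI6, MX1, SP100, EIF2AK2, IRF1, CMPK2, IFITM2 and IFITM3. The 250 upstream bases of XAF1 hold no ISRE core, nor do those of IFI16.

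EPSTI1, an interferon-induced gene also found in the stroma of tumours, had 23.0, 19.6 and 23.0 CPM in shControl and 17.9, 16.7 and 18.1 CPM in shZNF469. It just missed the threshold (log2 fold change -0.31, SE 0.08, edgeR adjusted p = 0.0597). It passed without shControl replicate 2, its lowest control (adjusted p = 0.0469), and with DESeq2 (adjusted p = 0.00558). IFI35, a partner of NMI, had 17.0, 16.7 and 22.2 CPM against 14.1, 13.1 and 15.7 CPM (log2 fold change -0.38, adjusted p = 0.118, and 0.0145 with DESeq2). Without shControl replicate 3, its highest library, the log2 fold change was -0.24 (adjusted p = 0.263). IFI6, which encodes a small mitochondrial and endoplasmic reticulum protein, had 17.3, 17.4 and 20.4 CPM against 19.0, 16.1 and 25.2 CPM (adjusted p = 0.711). The knockdown values of IFI6 lay on either side of the controls, whereas those of EPSTI1 and IFI35 all lay below. IFI44L had 18 counts in shControl replicate 1 and was listed at 0 elsewhere, and it was not tested.

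Members with and without the response element gave similar counts. Of the 20 tested members with an ISRE core, 1 was higher and 2 lower, with a median log2 fold change of -0.05. The higher one was HERC5, whose call is no support for a rise. Of the 14 without a core, 1 was higher and 1 lower, with a median of -0.02. Over all tested genes, 4.56% were higher and 5.34% lower. The counts of members are too small to set apart, and no core says only that these letters are not in this window.

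Upstream of these genes, the receptors and kinases did not pass except for IFNGR1. Of 19 tested genes of receptors and signalling, 1 was higher (5.26%) and 0 lower, beside 4.56% and 5.34% of all tested genes. The share called higher is near that of all tested genes, and nothing is read from it. IFNGR1, the ligand-binding chain of the type II receptor, had 84.2, 79.0 and 77.2 CPM in shControl and 91.2, 96.2 and 94.8 CPM in shZNF469 (log2 fold change 0.23, SE 0.06, edgeR adjusted p = 0.0438). This call was lost in 8 of 10 alternatives, among them each of the 6 fits without 1 library (adjusted p up to 0.163). The type I receptor genes IFNAR1 and IFNAR2 had log2 fold changes of 0.05 (SE 0.07) and 0.07 (SE 0.08). JAK1 and TYK2 had 0.13 (SE 0.05) and -0.03 (SE 0.06), and JAK1 passed with DESeq2 alone (adjusted p = 0.0245). Of 21 interferon genes, IFNE alone was matched, above 0 in 1 library, and the other 20 were not analysed here.

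Of 25 tested genes of nucleic acid sensing, 1 was higher (4.0%) and 2 lower (8.0%), beside 4.56% and 5.34% of all tested genes. With so few genes, nothing is read from these shares. DHX58, which encodes LGP2, a regulator of RNA sensing, had 9.12, 8.74 and 11.5 CPM in shControl and 15.4, 12.6 and 15.4 CPM in shZNF469 (edgeR adjusted p = 0.0425). SAMHD1, which breaks down the DNA building blocks that viruses need, was 1.24-fold lower (adjusted p = 0.0261). RNASEH2A, a subunit of the enzyme that removes RNA from DNA, was lower too (log2 fold change -0.86, adjusted p = 0.0243). These calls were lost without shControl replicate 1 and without shZNF469 replicate 1 or 3 for all 3 genes. DHX58 and SAMHD1 also lost theirs without shControl replicate 2, SAMHD1 and RNASEH2A without shControl replicate 3, and RNASEH2A without shZNF469 replicate 2. Their adjusted p reached 0.146, 0.109 and 0.0913 at most over all alternatives.

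Other interferon-stimulated genes, which are not among the members, included 8 of 80 tested that were higher and 1 that was lower (1.25%), beside 4.56% and 5.34% of all tested genes. Their median log2 fold change was 0.06, beside 0.00 over all tested genes. The library order with shControl replicate 3 highest and shZNF469 replicate 2 lowest held for 27 of the 80, beside 18.7% of all tested genes, and its part in these counts was not tested. The count of higher genes was 2, 4 and 3 without shControl replicates 1, 2 and 3, and 2, 13 and 5 without shZNF469 replicates 1, 2 and 3. Over all genes the count moved too, from 745 with all libraries to 215, 332 and 267, and to 204, 769 and 496, in the same fits. WARS1, a tRNA synthetase gene that amino acid stress induces too, was 1.67-fold lower (log2 fold change -0.74, SE 0.06, edgeR adjusted p = 0.000873). HLA-E, a nonclassical MHC class I gene, was 1.43-fold higher (adjusted p = 0.00191). TRIM22, a restriction factor gene, had 101, 104 and 97.9 CPM in shControl and 128, 131 and 129 CPM in shZNF469 (adjusted p = 0.00594). The calls of these 3 genes held in all 10 alternatives. The complement protease gene C1S was 1.20-fold higher (adjusted p = 0.00924), a call that ended when shControl replicate 1 or shZNF469 replicate 1 was left out (adjusted p up to 0.0517).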

How the data were processed

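Column-purified RNA of the 6 samples was sequenced after NEBNext Ultra library preparation, per the labels' protocols. Per the submitters' processing notes, HISAT2, StringTie and GRCh38.p14 were used. The sources used here do not give the annotation, the strand setting or any filter. The authors deposited a whole-number count and a TPM per gene and library. Of 21151 genes, 4195 had no symbol. For the 58 repeated symbols the row with the highest mean count was used.

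Counts were fitted with edgeR 4.0.16 in R 4.3.3 (filterByExpr with minimum count 10, TMM scaling by the trimmed mean of M-values, quasi-likelihood F-test, two-sided, Benjamini-Hochberg adjustment over 16353 genes, threshold 0.05) after tests on simulated data. The SE is the fold change over the square root of F. Alternatives were DESeq2 1.42.0, RLE scaling, no filter, a replicate block, and leaving out each library. Within groups, counts of library pairs differed beyond sampling noise (chi-square per degree of freedom 8.70 to 34.8). Coordinates and promoters come from RefSeq (GRCh38.p14). Shared 50-base windows, transcript lengths and overlaps are from GENCODE release 29. Transcript lengths matched 89.5% of genes.

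Members and lists were chosen with earlier results of these data known. By rule, all values are given for members that passed, for those that passed in an alternative, and for the 8 with the highest TPM. Of the others, up to 2 per role, and of other lists up to 4 that passed, are named. IRF7, IFIT2, OAS1, OAS2, ISG20, HERC6, IFI44L and the members that share an order of libraries were added after their values were seen. One gene of a pathway list is not reported here.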

Additional observations from a re-analysis of the deposited data

How the results depend on the processing

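The number of calls moved with the choice of tool. Over all genes, DESeq2 gave 1622 higher and 1624 lower (745 and 874 with edgeR), 4 and 6 members, 15 and 4 other interferon-stimulated genes, 6 lower sensing genes and 3 higher receptor and signalling genes. Without the filter, 0 receptor and signalling genes were higher. With single libraries left out, 204 to 769 genes were higher and 333 to 854 lower, and of the members 0 to 2 were higher and 1 to 2 lower. Of the 5 members that passed, 1 to 4 then did so. Other interferon-stimulated genes gave 2 to 13 higher and 1 lower each time, sensing genes 0 to 1 higher and 0 to 1 lower, and receptor and signalling genes 0 to 1 higher and 0 lower. No direction of a named member that passed was turned in any alternative.

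Over all tested genes, same-numbered libraries hardly deviated together (correlations -0.02, 0.08 and 0.03). With so few libraries, these values cannot show whether the numbers mark pairs. With the replicate number as a block, 592 genes were higher and 736 lower, 1 member was higher and 1 lower, and 2 of the 5 members passed (IFIT1 and IFI16). With the block, 0 receptor and signalling genes were higher. Of the 3 control libraries, those of replicates 2 and 3 correlated best with their own number. Counts of about 25 or fewer for a gene as long as HERC5 fall under the table's floor, which limits what can be said of OAS1, OAS2, ISG20 and IFI44L too.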
